A study of Mus musculus with 16 samples.

Results

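The developing ovary of Wnt4 knock-out mouse embryos was followed from embryonic day 12.5 (E12.5) to E14.5 by comparing the 2 knock-out ovary arrays of each stage, 4 of the 16 arrays of the study. Membership was set by the labels alone, and all probe sets with a gene symbol were used, which left 12336 genes to test. Total RNA of embryonic gonads was hybridised to Affymetrix mouse arrays, and the deposited values are probe-set intensities, a measure of brightness on a linear scale. The other groups used here were wild-type ovary and Wnt4 knock-out testis at the same stages, 2 arrays each. Wild-type testis was not compared with any group. It entered the estimate of the spread, the filter and choice of probe sets, and the measure of opposite-sex RNA. Genotypes were assigned by PCR on gonads held frozen until then, and the male arrays, whose titles say ovary but whose source says testis, were treated as testis. The labels give neither the deleted part of Wnt4 nor the strain, and do not say whether all cells of the embryo lacked the gene. They speak of biological replicates without saying whether one array held 1 embryo or a pool, so p-values here measure only the spread between these arrays.

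WNT4 is a secreted signalling protein that acts through beta-catenin in the supporting cells of the fetal ovary, where it raises genes such as Fst and opposes the testis programme. In the same days the female germ cells stop dividing, leave the state that resembles stem cells and enter meiosis. STRA8, induced by retinoic acid, starts that entry, cohesins and the synaptonemal complex then build the chromosome axes, and recombination enzymes cut and repair the DNA on them. Supporting cells turn on FOXL2 over the same period. Steroid-producing cells and cells of the adrenal gland arise next to the gonad, and a known effect of losing Wnt4 is that adrenal-like cells stay in the gonad.

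Single arrays differed in RNA quality and in RNA of the other sex, and these measures touch the comparison at its E12.5 end. The control probe sets for actin and Gapdh give a 3'/5' ratio that is higher when the labelled RNA is short, and it was 2.27 and 1.35 in the knock-out ovary arrays at E12.5 (replicates 1 and 2) and 1.13 and 1.11 at E14.5. Y-linked transcripts stood for 17.7% testis RNA in the second knock-out ovary array at E12.5 and at most 0.432% in the other 3. The share was 18.0% and 6.74% in wild-type ovary at E12.5, and 19.9% in replicate 2 of wild-type ovary at E14.5, and Xist corresponded to 16.4% ovary RNA in knock-out testis E14.5 replicate 2. Mean intensity lay between 272 and 288 per array. The E12.5 pair of knock-out ovaries was less alike than the E14.5 pair, with an SD of the log2 difference over genes of 0.545 against 0.335. The wild-type testis pair at E12.5 was the most alike, at 0.142 against 0.335 to 0.592 in the other groups. Whether its arrays held the same RNA is not known, and its small spread enters the estimate shared by all tests here. Changes below are differences of log2(intensity + 4), a scale that understates the change of dim genes, and adjusted p-values come from limma with Benjamini-Hochberg adjustment over all genes tested.

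Wnt4 itself stayed readable in the arrays labelled knock-out. Its brightest probe set read 839 and 520.2 at E12.5, then 351 and 302 at E14.5 in knock-out ovary. All of the E14.5 arrays lay below the E12.5 arrays, yet the change did not pass the test (log2 change -1.01, limma adjusted p = 0.0752). A second probe set read 440.5 and 192.7 at E12.5, then 101.1 and 101.5 at E14.5. In wild-type ovary the brightest probe set read 844 and 1822 at E12.5, then 1138 and 1151 at E14.5, so that knock-out replicate 1 at E12.5 was as bright as a wild-type array while at E14.5 the knock-out arrays lay far below the wild-type ones. Since the sources used here do not say which probe sets the deletion covers, this signal does not check the genotype labels.

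From E12.5 to E14.5 1696 of 12336 genes changed in the knock-out ovary at an adjusted p under 0.05 (limma), 13.7% of those tested. They divided into 659 that rose (5.34%) and 1037 that fell (8.41%). The largest rises were mostly of meiosis genes, and the largest falls included genes of chromaffin cells and sympathetic neurons, the catecholamine-producing cells of the adrenal medulla and the nerve cells related to them. Every called gene had E12.5 and E14.5 arrays that did not overlap, but so had 61.9% of all genes tested. The median log2 change of all genes was -0.10. Centring each array on its median moved that to 0.01 and the share of rises among the calls from 38.9% to 51.5%. The count depended on single arrays, at 436 genes without E12.5 replicate 1, 2746 without E12.5 replicate 2, 593 without E14.5 replicate 1 and 562 without E14.5 replicate 2. As a covariate the 3'/5' ratio gave 413 and the opposite-sex share 2974, and it was 1130 when the almost identical wild-type testis arrays of E12.5 were averaged.

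**Figure D1:**
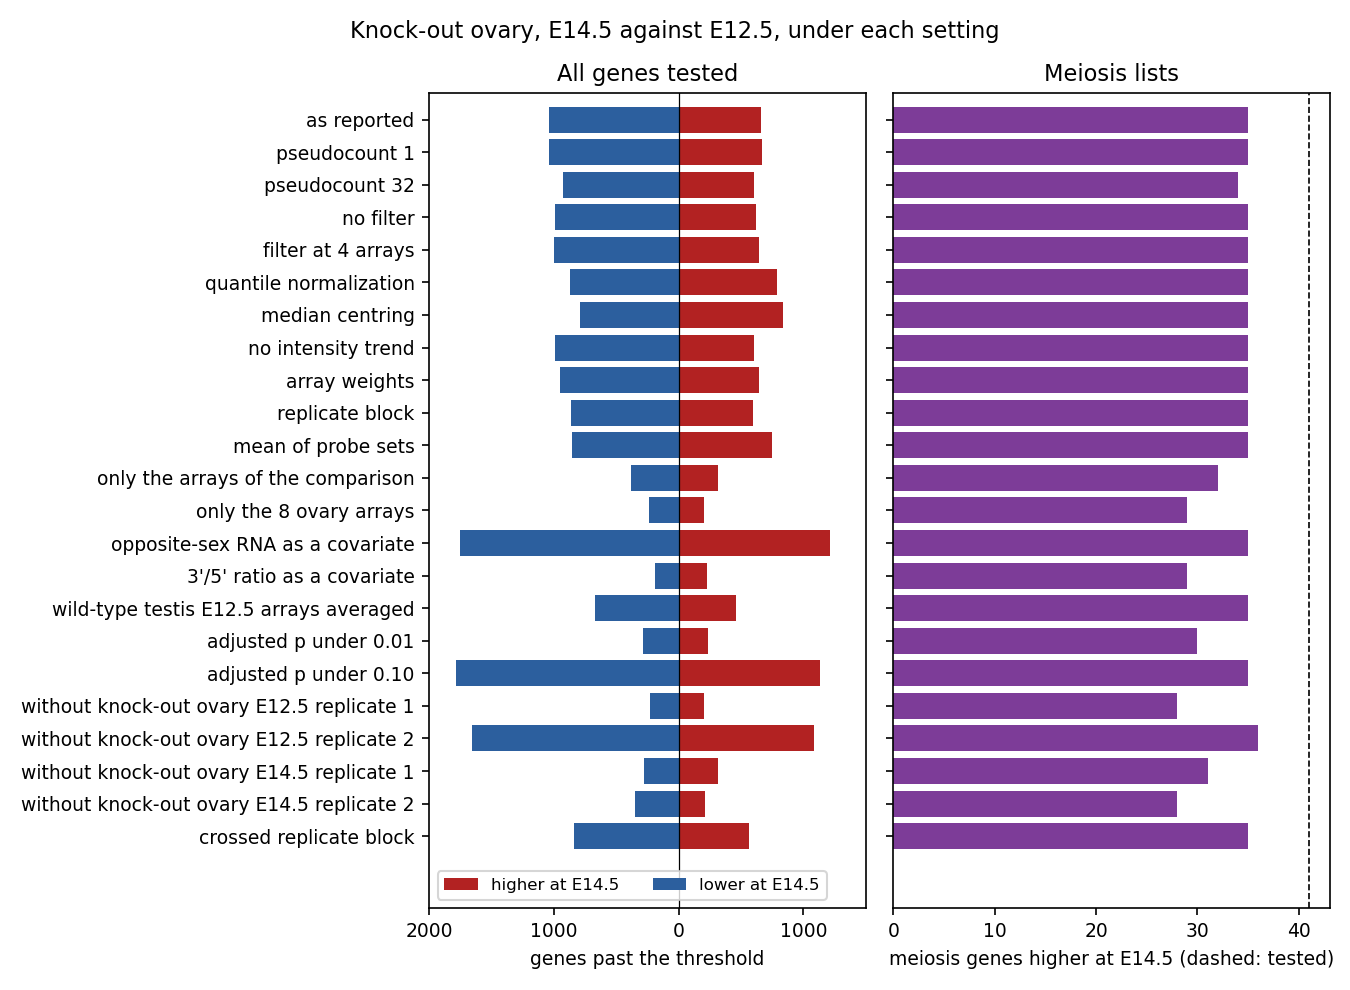
Number of genes past the threshold in knock-out ovary, E14.5 against E12.5, as reported and under the other settings: on the left all genes tested (rises to the right of 0, falls to the left), on the right the meiosis genes that rose, with a dashed line at the 41 tested. The setting in which every named probe set was tested is not drawn. The total lies between 413 and 2974, while the meiosis count stays between 28 and 36.

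Meiotic genes rose together in the knock-out ovary. Over 5 lists that cover entry into meiosis, cohesins, chromosome axes, recombination and telomere attachment, 35 of the 41 genes tested rose, 0 fell and 6 did not pass, with a median log2 change of 2.77 against -0.10 over all genes, of which 5.34% rose. A further 10 members, Meiosin among them, are not named here on the array. In wild-type ovary, where 2.48% of all genes tested rose, 34 of the 41 did, with a median of 2.62, and in knock-out testis, where 2.68% of all genes rose, 10 did. The knock-out count was 28 without E12.5 replicate 1 and 28 without E14.5 replicate 2, and 29 with the 3'/5' ratio as a covariate. In whole gonads more cells of a type and more RNA per cell cannot be told apart.

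Entry into meiosis was marked by Stra8, the gene that commits germ cells to it. Its signal was 4.83 and 5.58 at E12.5, then 1149 and 1081 at E14.5 in knock-out ovary, a 122-fold rise on the log2(intensity + 4) scale (log2 change 6.93, SE 0.85, adjusted p = 0.000205 by limma). At E12.5 Stra8 lay near the dim end of the arrays and at E14.5 both arrays were bright and close to each other. In wild-type ovary it read 6.95 and 12.7 at E12.5, then 828 and 606 at E14.5 (log2 change 5.72, adjusted p = 0.00166), and the difference between the genotypes' changes was 1.21 (95% interval -1.38 to 3.79, adjusted p = 0.966).

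Meioc, which encodes a partner of the RNA-binding protein YTHDC2 that keeps germ cells in meiotic prophase, read 8.01 and 14.1 at E12.5, then 432 and 889 at E14.5 (log2 change 5.40, adjusted p = 0.00883). It was dim in both E12.5 arrays and bright in both E14.5 arrays, as in wild-type ovary (9.94 and 8.6 at E12.5, then 1067 and 339 at E14.5). The call was lost at adjusted p = 0.0792 without E12.5 replicate 1 and 0.0758 without E14.5 replicate 2. Taf4b, a germ-cell subunit of the transcription machinery, rose from 68.9 and 60.7 to 349 and 504 (log2 change 2.62, adjusted p = 0.00033). Dazl, an RNA-binding protein that licenses germ cells for meiosis, was bright already at E12.5 and rose by less (log2 change 1.49, adjusted p = 0.000916). Rnf6 rose by 1.02 with that call lost at adjusted p = 0.147 without E12.5 replicate 1, 0.0631 without E14.5 replicate 1 and 0.0819 without E14.5 replicate 2, and Ythdc2 did not pass (51.4 and 192 at E12.5, then 211 and 247 at E14.5, adjusted p = 0.161).

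The 5 meiosis genes with the largest rises that have an entry in the RefSeq promoter table were Stra8, Tex12, Sycp1, Terb1 and Meioc, and their upstream sequence is shown because they moved together. Each line holds the 250 bases before the start of transcription in the direction of the gene (RefSeq, GRCm38.p6), at chr6:34920698-34920947 on the plus strand for Stra8, chr9:50561269-50561518 on the minus strand for Tex12, chr3:102936101-102936350 on the minus strand for Sycp1, chr8:104509888-104510137 on the minus strand for Terb1 and chr11:102665335-102665584 on the plus strand for Meioc. Capitals mark matches on either strand to AGGTCA (the half-site of retinoid receptors), CACGTG (an E-box), TCCCGC (a core of E2F sites), CNCCTCAG (a motif given for STRA8 with MEIOSIN) and CTTTGA (a core of TCF/LEF sites).
Stra8: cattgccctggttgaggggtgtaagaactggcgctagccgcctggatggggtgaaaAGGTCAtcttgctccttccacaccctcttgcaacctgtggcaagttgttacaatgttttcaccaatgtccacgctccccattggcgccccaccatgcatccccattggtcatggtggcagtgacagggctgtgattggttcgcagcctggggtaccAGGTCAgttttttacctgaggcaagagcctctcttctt
Tex12: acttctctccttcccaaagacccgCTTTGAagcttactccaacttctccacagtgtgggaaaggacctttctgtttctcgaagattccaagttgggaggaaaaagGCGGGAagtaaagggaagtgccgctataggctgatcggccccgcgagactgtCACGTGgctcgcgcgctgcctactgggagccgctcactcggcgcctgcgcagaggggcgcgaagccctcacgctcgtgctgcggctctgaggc
Sycp1: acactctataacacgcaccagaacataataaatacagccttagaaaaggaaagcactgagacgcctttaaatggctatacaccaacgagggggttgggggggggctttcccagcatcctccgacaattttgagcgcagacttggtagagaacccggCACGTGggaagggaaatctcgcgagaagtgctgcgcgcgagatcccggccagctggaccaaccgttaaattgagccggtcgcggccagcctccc
Terb1: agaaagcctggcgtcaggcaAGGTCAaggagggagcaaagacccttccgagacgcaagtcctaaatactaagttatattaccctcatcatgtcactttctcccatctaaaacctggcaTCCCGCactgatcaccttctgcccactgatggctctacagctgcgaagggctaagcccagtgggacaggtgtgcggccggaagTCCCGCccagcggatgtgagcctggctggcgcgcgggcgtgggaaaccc
Meioc: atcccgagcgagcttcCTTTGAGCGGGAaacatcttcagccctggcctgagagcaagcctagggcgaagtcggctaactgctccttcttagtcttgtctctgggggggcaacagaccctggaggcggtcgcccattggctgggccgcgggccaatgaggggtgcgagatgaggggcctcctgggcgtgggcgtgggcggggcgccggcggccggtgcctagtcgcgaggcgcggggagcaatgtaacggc

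Stra8 held 2 matches to AGGTCA, starting 194 and 38 bases before the start of transcription. Tex12 and Sycp1 each held 1 E-box, starting 93 and 94 bases before it. Terb1 held 1 AGGTCA and 2 TCCCGC, and in Meioc a CTTTGA was followed directly by a TCCCGC on the other strand. Of the 35 meiosis genes that rose, 28 had a promoter entry, and 13 of these (46.4%) held TCCCGC, against 16.9% of all 32851 promoters and 30.9% of the 9963 promoters of genes tested here. CACGTG was found in 7 (25.0%, against 6.02% of all and 8.55% of tested genes) and CTTTGA in 7 (against 13.8% and 10.5%). AGGTCA was found in 4 (14.3%, against 14% and 10.2%) and CNCCTCAG in 2 (7.14%, against 6.42% and 7.10%). These are matches of letters, described without a test.

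**Figure D2:**
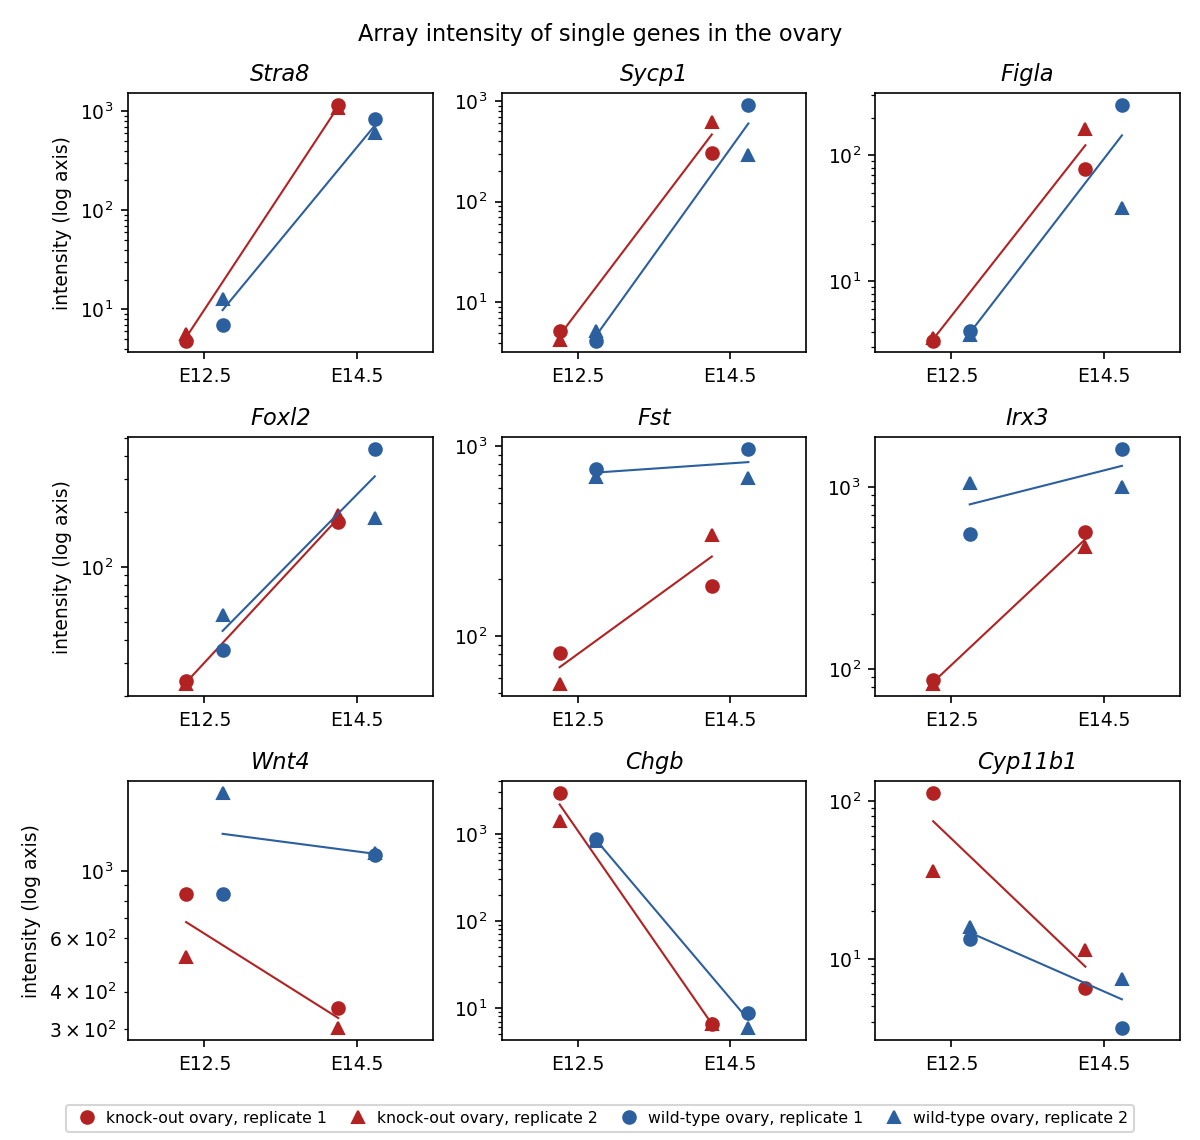
Intensity on a log axis of 9 genes in each ovary array at E12.5 and E14.5, with knock-out in red, wild type in blue, circles for replicate 1, triangles for replicate 2 and lines through the means of n = 2 arrays. Stra8, Sycp1, Figla and Foxl2 rise in both genotypes, Fst and Irx3 rise in the knock-out from levels below wild type, and Chgb falls to below 10.

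Transcripts for the proteins that hold and pair meiotic chromosomes followed the same course. All 10 genes of the synaptonemal complex and chromosome axis rose in the knock-out ovary, with a median log2 change of 4.96, and all 10 rose in wild-type ovary too, with a median of 4.79. Sycp1, which forms the transverse filaments of the complex, read 5.19 and 4.25 at E12.5, then 306 and 623 at E14.5 (log2 change 5.66, SE 0.69, adjusted p = 0.000201). The E14.5 arrays differed from each other by a factor that was small beside the gap to E12.5. In wild-type ovary Sycp1 read 4.17 and 5.22 at E12.5, then 906 and 288 at E14.5, and the difference between the genotypes' changes was -0.23 (95% interval -2.34 to 1.88). The lower wild-type value at E14.5 was in replicate 2, the array with 19.9% testis RNA, as it was for Stra8, Meioc, Figla and Foxl2. Summed over this list, that array read 6027 against 13820 in replicate 1. The part of testis RNA in these values was not tested.

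Tex12, a protein of the central element of the complex, read 4.42 and 10.8 at E12.5, then 868 and 950.3 at E14.5 (log2 change 6.35, adjusted p = 4.82e-06). Sycp3, a component of the axis, read 56.5 and 148 at E12.5, then 3197 and 4220 at E14.5 (log2 change 5.26, adjusted p = 0.000128), and its fold of 38.4 became 24.2 without E12.5 replicate 1 and 60.7 without E12.5 replicate 2. Sycp2, Syce1 and 4930447C04Rik (also named Six6os1) rose by 5.35, 4.90 and 5.02 on the log2 scale. For these 5 genes no E12.5 array reached the level of an E14.5 array, and Sycp3 was the only one above 100 at E12.5, in replicate 2. Genes for the HORMA-domain proteins of the unpaired axis rose as well, Hormad1 by 4.58 and Hormad2 by 2.16. Without E12.5 replicate 1 and replicate 2 the fold of Hormad1 was 15.4 and 37.4 in place of 24. The remaining members were Syce3 at 3.65 and Syce2 at 1.09.

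All 3 meiotic cohesins that were tested rose in the knock-out ovary. Smc1b read 24.4 and 23.1 at E12.5, then 1243 and 971 at E14.5 (log2 change 5.31, adjusted p = 0.000109), and Rec8, the subunit that replaces RAD21 in meiosis, read 8.03 and 6.12 at E12.5, then 60.4 and 37.3 at E14.5 (log2 change 2.23, adjusted p = 4.35e-05). Stag3 read 32.9 and 104 at E12.5, then 529.7 and 472 at E14.5 (log2 change 3.0, adjusted p = 0.000436), with a fold of 4.66 and 13.7 without E12.5 replicates 1 and 2 in turn. E12.5 replicate 2 carried more Stag3 than replicate 1, while Smc1b and Rec8 were level between them. In knock-out testis 0 of these 3 passed (adjusted p = 0.178 to 0.657 by limma), and the change in ovary exceeded that in testis by 4.48 for Smc1b (adjusted p = 0.0215), 2.55 for Stag3 (adjusted p = 0.0475) and 1.61 for Rec8 (adjusted p = 0.0281).

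Of 17 recombination genes 13 rose, beside 5.34% of all genes, with a median log2 change of 1.90. Dmc1, the recombinase used only in meiosis, read 3.74 and 6.45 at E12.5, then 195 and 272 at E14.5 (log2 change 4.71, adjusted p = 4.82e-06). Meiob, which binds single-stranded DNA beside it, read 5.28 and 4.92 at E12.5, then 126 and 179.7 at E14.5 (log2 change 4.09, adjusted p = 0.000704), and Prdm9, which marks the sites of the breaks, read 5.12 and 3.54 at E12.5, then 30.0 and 65.5 at E14.5 (log2 change 2.55, adjusted p = 0.00182). For each of these the E12.5 arrays sat at the dim end and none overlapped with E14.5. Tex11, Tex15 and Hsf2bp rose by 4.75, 3.80 and 3.33, and Spo11, which makes the breaks, by 2.77. The 4 that did not pass were Brca2, Mei1, Psmc3ip and Mlh3.

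Genes that tie telomeres to the nuclear envelope rose in 4 of 5 cases. Terb1 read 4.58 and 4.97 at E12.5, then 251 and 607 at E14.5 (log2 change 5.49, adjusted p = 0.000324), and its fold of 45 became 69.6 without E14.5 replicate 1 and 29.1 without E14.5 replicate 2. Spdya, an activator of the kinase CDK2 at telomeres, read 5.9 and 6.06 at E12.5, then 285 and 505 at E14.5 (log2 change 5.26, adjusted p = 7.48e-05). Terb2 rose by 2.81 and Majin by 1.94, and in all 4 genes E14.5 replicate 2 was brighter than replicate 1. The call on Majin was lost at adjusted p = 0.0839 without E12.5 replicate 1 and 0.112 without E14.5 replicate 2, and its fold of 3.83 was 7.06 without E14.5 replicate 1 and 2.08 without E14.5 replicate 2. Sun1, a protein of the nuclear envelope in many cell types, did not pass with its brightest probe set (354 and 341 at E12.5, then 412 and 510.5 at E14.5), while a dimmer one changed by 3.02.

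Markers of germ cells themselves rose in part. Of 13 tested genes of germ cell identity and the piRNA pathway, which silences transposons, 8 rose and 0 fell, with a median log2 change of 1.94. Among all genes 5.34% rose. Ddx4, a helicase present in germ cells of either sex, read 143 and 370.5 at E12.5, then 1313 and 1168 at E14.5 (log2 change 2.41, adjusted p = 0.00153). Its lowest value was in E12.5 replicate 1, and its fold of 5.3 was 3.32 without that array and 8.47 without E12.5 replicate 2. Mael read 21.5 and 103 at E12.5, then 1098 and 1222 at E14.5 (log2 change 4.48, adjusted p = 0.000145), with a fold between 10.9 and 45.6 when either E12.5 array was left out. Gtsf1 (3.67), Mov10l1 (3.29), Rnf17 (1.94) and Tdrkh (1.99) rose, as did Asz1 (1.94) and Piwil2 (2.12), whose calls were lost at adjusted p = 0.0751 without E12.5 replicate 1 and 0.0638 without E14.5 replicate 1 for Asz1 and 0.068 without E12.5 replicate 1 and 0.0913 without E14.5 replicate 1 for Piwil2. In knock-out testis, where 2.68% of all genes rose, 9 of the 13 did, against 8 in the knock-out ovary.

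Genes of the earlier state that resembles stem cells fell about as often as all genes (8.41%). Among 19, 2 fell, 0 rose and 17 did not pass by limma (6 lower and 0 higher at an unadjusted p under 0.05), with a median log2 change of -0.56. Kit, the receptor that supports migrating germ cells, read 627 and 666 at E12.5, then 191 and 141 at E14.5 (log2 change -1.95, adjusted p = 0.00248), although a dimmer probe set of Kit changed by -0.19. Tfap2c, a transcription factor of early germ cells, read 67.2 and 91.5 at E12.5, then 27.2 and 8.09 at E14.5 (log2 change -2.09, adjusted p = 0.00789), a call lost at adjusted p = 0.089 without E14.5 replicate 2. Its fold of 4.25 was 6.82 without E14.5 replicate 1 and 2.64 without E14.5 replicate 2. Pou5f1, the core factor of that state, read 125 and 222 at E12.5, then 312 and 75.5 at E14.5, with the E14.5 arrays on either side of the E12.5 ones. Sox2 read 391.5 and 383 at E12.5, then 454 and 214 at E14.5 in knock-out ovary and 448 and 357 at E12.5, then 10.3 and 128 at E14.5 in wild-type ovary, where it fell (log2 change -3.21, adjusted p = 0.0203). The difference between those changes was 2.91 (95% interval 0.74 to 5.07, unadjusted p = 0.0123, adjusted p = 0.963 by limma). Dppa3, a factor that protects the germ cell genome, read 418 and 712 at E12.5, then 1616 and 1240 at E14.5 in the knock-out and 596 and 316 at E12.5, then 15 and 1197 at E14.5 in wild type. Wild-type E14.5 replicate 1 was the low array for Pou5f1, Sox2 and Dppa3, and replicate 2 was the array with 19.9% testis RNA. The list summed to 2027 and 5623 in wild-type ovary at E14.5, and to 11160 and 12450 in knock-out testis. The part of testis RNA in the wild-type values was not tested.

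Early oocyte genes were divided. Figla, the transcription factor that starts the programme of the egg coat, read 3.39 and 3.58 at E12.5, then 78.1 and 163 at E14.5 (log2 change 3.97, adjusted p = 0.000743), from the dim end at both E12.5 arrays to a clear signal at E14.5. It read 4.04 and 3.75 at E12.5, then 250.3 and 38.4 at E14.5 in wild-type ovary. Sohlh2, a factor of early oocyte growth, read 62.1 and 39.7 at E12.5, then 232 and 156 at E14.5 (log2 change 1.85, adjusted p = 0.00538), a call lost at adjusted p = 0.0665 without E14.5 replicate 1. The other 4 tested members did not pass. A further 15 members, among them Nobox, Lhx8, Sohlh1, Gdf9, Zp2 and Zp3, were below the filter on dim probe sets.

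Of 6 genes of male germ cells, 1 rose, 1 fell and 4 did not pass in the knock-out ovary, where 5.34% of all genes rose and 8.41% fell. Piwil4, which acts in the prospermatogonia of the testis, read 8.07 and 6.85 at E12.5, then 7.19 and 8.98 at E14.5. Dnmt3l, which guides DNA methylation there, read 5.59 and 4.7 at E12.5, then 5.27 and 4.88 at E14.5, and for both genes the stages overlapped. In knock-out testis they rose by 3.79 and 1.62. Tex19.1, which controls transposons, rose (2.26, adjusted p = 0.0422) and Nodal, a signalling ligand of the early male germ line, fell (-0.85, adjusted p = 0.0321). With 1 array left out the adjusted p was 0.251 without E12.5 replicate 1, 0.0559 without E12.5 replicate 2, 0.26 without E14.5 replicate 1 and 0.0765 without E14.5 replicate 2 for Tex19.1, and 0.273 without E12.5 replicate 1, 0.112 without E14.5 replicate 1 and 0.147 without E14.5 replicate 2 for Nodal.

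Of 14 genes of retinoic acid, the signal that induces Stra8, 3 fell and 0 rose by limma (7 lower and 0 higher at an unadjusted p under 0.05), with a median log2 change of -0.43. Over all genes 8.41% fell and 5.34% rose. Crabp1, a binding protein for retinoic acid, read 1532 and 1949 at E12.5, then 289 and 344 at E14.5 (log2 change -2.44, adjusted p = 0.00119). Its relative Crabp2 read 1210 and 1011 at E12.5, then 474 and 467 at E14.5 (log2 change -1.23, adjusted p = 0.00603). Cyp26b1, the enzyme that degrades retinoic acid in the fetal testis, read 35.6 and 65.4 at E12.5, then 6.42 and 6.63 at E14.5 (log2 change -2.32, adjusted p = 0.0207), and its higher E12.5 value was in the array with testis RNA. The Crabp2 call was lost without E12.5 replicate 1 (adjusted p = 0.072), and the Cyp26b1 call without each of the arrays in turn (adjusted p from 0.0562 to 0.108). Aldh1a2, which makes retinoic acid in the adjoining mesonephros, did not pass (1246 and 1260 at E12.5, then 861 and 843 at E14.5, adjusted p = 0.0671).

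The marker of the female supporting lineage rose in the knock-out ovary. Foxl2, the transcription factor that keeps ovarian supporting cells from a testis fate, read 24.2 and 23 at E12.5, then 176 and 193 at E14.5 in knock-out ovary (log2 change 2.77, SE 0.42, adjusted p = 0.00112). The pairs were tight at both stages and far apart from each other. In wild-type ovary Foxl2 read 35.4 and 54.6 at E12.5, then 437 and 184 at E14.5 (log2 change 2.58, adjusted p = 0.00335), and the difference between the genotypes' changes was 0.18 (95% interval -1.10 to 1.47, adjusted p = 0.985). It did not pass in knock-out testis (log2 change 0.20, adjusted p = 0.871).

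Of the 17 pre-granulosa genes tested, the supporting-cell list, Foxl2, Irx3 and Fst rose, 0 fell and 14 did not pass, with a median log2 change of 0.08. Among all genes 5.34% rose and 8.41% fell. Fst, the activin antagonist follistatin, read 81.3 and 55.5 at E12.5, then 182 and 341 at E14.5 in knock-out ovary (log2 change 1.83, adjusted p = 0.0408) and 759.8 and 688 at E12.5, then 962 and 681 at E14.5 in wild-type ovary. Each knock-out array lay below each wild-type array, at E14.5 as at E12.5. The difference between the changes was 1.67 (95% interval 0.02 to 3.32, unadjusted p = 0.0478, adjusted p = 0.966 by limma). Irx3, a homeobox gene, had the same course, at 87.2 and 82.1 at E12.5, then 566 and 469 at E14.5 in knock-out ovary (log2 change 2.55, adjusted p = 0.0179) and 554 and 1053 at E12.5, then 1618 and 998 at E14.5 in wild-type ovary. With 1 array left out the adjusted p for Fst was 0.131 without E12.5 replicate 1, 0.107 without E12.5 replicate 2, 0.0766 without E14.5 replicate 1 and 0.22 without E14.5 replicate 2, and that for Irx3 was 0.102 without E12.5 replicate 1, 0.112 without E14.5 replicate 1 and 0.0751 without E14.5 replicate 2.

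The pre-granulosa genes Runx1, Lgr5 and Irx5 were called in wild-type ovary and not in the knock-out, and the differences between the genotypes' changes did not pass. Runx1, a transcription factor that acts beside FOXL2 in the fetal ovary, read 12 and 11.8 at E12.5, then 19.12 and 18.1 at E14.5 against 26.9 and 21.2 at E12.5, then 61.8 and 56.1 at E14.5 in wild-type ovary, where it rose (log2 change 1.17, adjusted p = 0.00183). Lgr5, a receptor for the WNT amplifiers called R-spondins, read 10.8 and 12.5 at E12.5, then 18.6 and 16.1 at E14.5 against 35.6 and 44.1 at E12.5, then 140.3 and 89.8 at E14.5 in wild type, and Irx5 read 5.48 and 5.59 at E12.5, then 5.2 and 7.08 at E14.5 against 8.99 and 20.6 at E12.5, then 75.1 and 40.5 at E14.5. Both rose in wild-type ovary and neither passed in the knock-out. The differences between the changes were -0.67 for Runx1 (95% interval -1.20 to -0.13), -0.97 for Lgr5 (-1.83 to -0.11) and -1.65 for Irx5 (-2.53 to -0.77), with unadjusted p of 0.0189, 0.0304 and 0.00137 and adjusted p of 0.966, 0.966 and 0.56 (limma). The Lgr5 and Irx5 values of wild-type E14.5 replicate 2, the array with 19.9% testis RNA, were below those of replicate 1. Rspo1, the R-spondin of the ovary, read 525 and 420.4 at E12.5, then 622 and 663 at E14.5 in the knock-out, with no call. Of the 9 later granulosa genes tested 0 passed in either direction by limma (2 higher and 1 lower at an unadjusted p under 0.05), and their median log2 change was -0.24. Among all genes 13.7% passed.

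Calls among feedback genes that report WNT signalling through beta-catenin were about as frequent as among all genes, of which 5.34% rose and 8.41% fell. Of 16 tested, 1 rose, 2 fell and 13 did not pass, with a median log2 change of -0.02. Notum, a secreted enzyme that inactivates WNT proteins, read 11.6 and 9.75 at E12.5, then 10.5 and 14.4 at E14.5 in the knock-out and 57.8 and 134 at E12.5, then 147 and 146 at E14.5 in wild-type ovary, so that its knock-out level was low at both stages. Axin2, the most widely used target of the pathway, read 221 and 124 at E12.5, then 106 and 65.6 at E14.5 (adjusted p = 0.169). Apcdd1, a WNT inhibitor at the cell surface, rose (746 and 696 at E12.5, then 1475 and 2519 at E14.5, log2 change 1.41, adjusted p = 0.0187). The secreted inhibitors Dkk1 (-1.52, adjusted p = 0.0146) and Wif1 (-1.57, adjusted p = 0.0399) fell, from 48.5 and 61.5 to 13.0 and 20.6 for Dkk1. These 3 calls were lost without single arrays, at adjusted p = 0.0981 without E12.5 replicate 1 and 0.148 without E14.5 replicate 2 for Apcdd1, 0.0573 without E12.5 replicate 1 and 0.128 without E14.5 replicate 1 for Dkk1 and 0.226 without E12.5 replicate 1, 0.0578 without E12.5 replicate 2, 0.141 without E14.5 replicate 1 and 0.161 without E14.5 replicate 2 for Wif1.

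**Figure D3:**
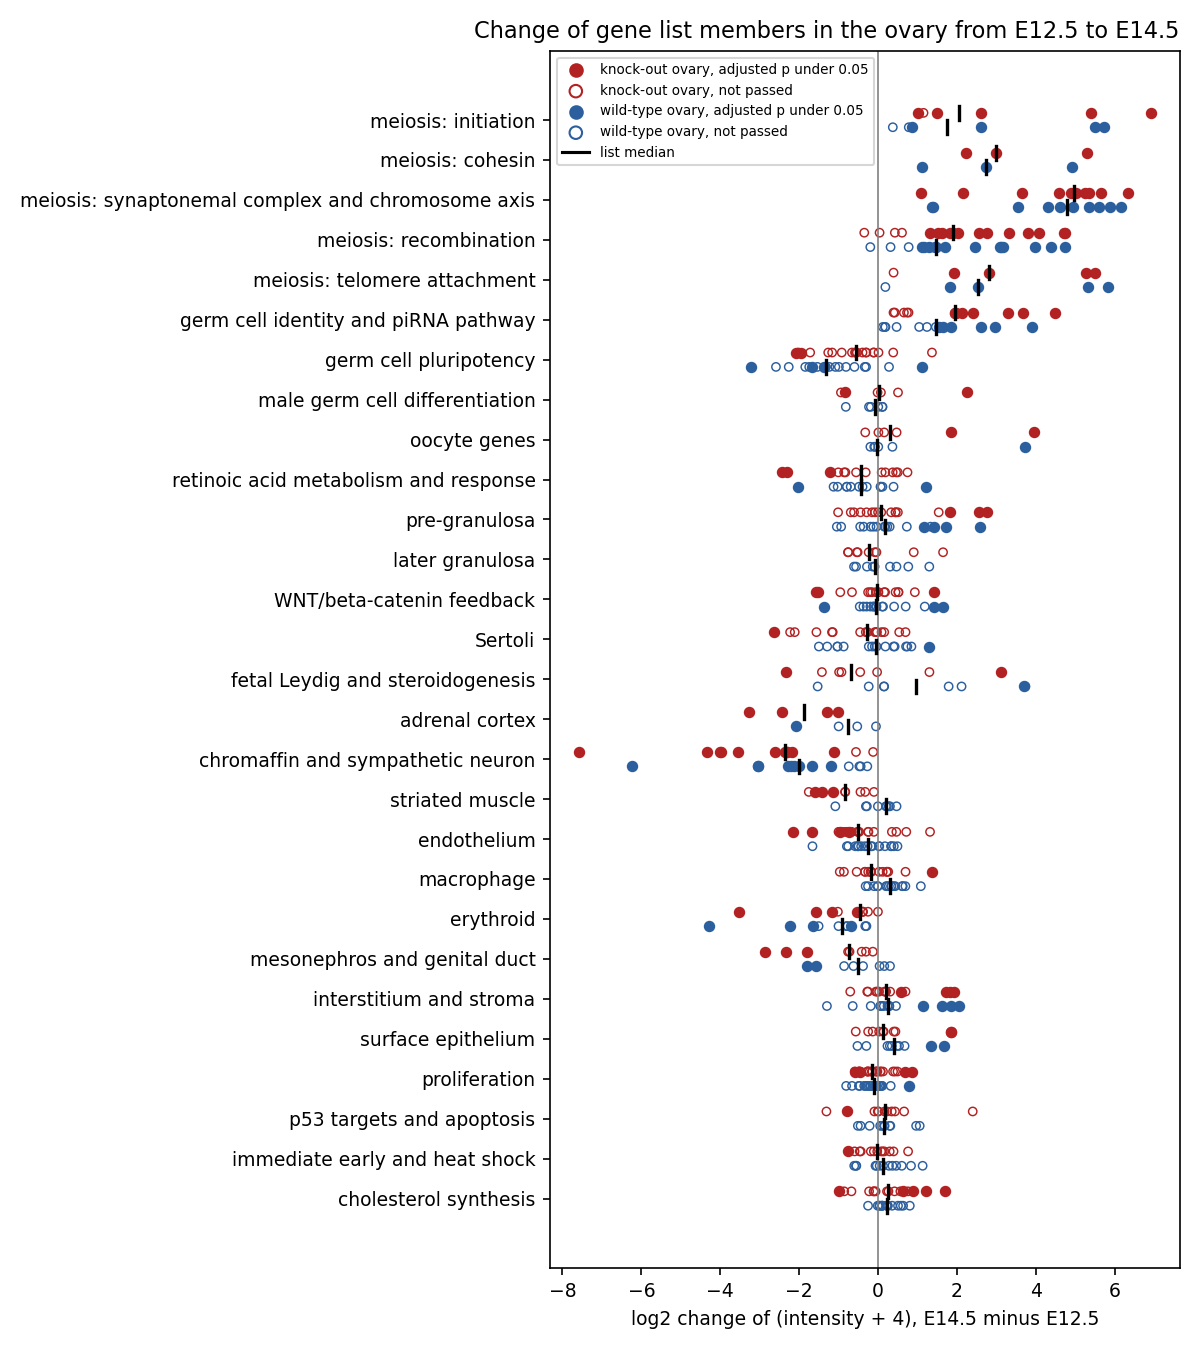
Log2 change of (intensity + 4) from E12.5 to E14.5 for each tested member of the 28 gene lists, with knock-out ovary in red and wild-type ovary in blue, filled points for an adjusted p under 0.05 and black bars for list medians. The medians of the 5 meiosis lists lie to the right of 0 and those of the chromaffin and adrenal cortex lists to the left in both genotypes, while members of most other lists lie on both sides of 0.

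No gene of Sertoli cells, the supporting cells of the testis, rose in the knock-out ovary. Of 16 tested, 0 rose and 1 fell by limma (1 higher and 2 lower at an unadjusted p under 0.05), with a median log2 change of -0.29. Since 5.34% of all genes rose and 8.41% fell, these counts were near the shares of all genes. Sox9, the factor that directs Sertoli cells, read 32.6 and 48.3 at E12.5, then 16.3 and 15.3 at E14.5, and Amh, their secreted hormone, read 3.06 and 5.9 at E12.5, then 2.63 and 2.87 at E14.5 in knock-out ovary and 11.5 and 19.7 at E12.5, then 42.7 and 31.3 at E14.5 in the knock-out testis. Both Sox9 and Amh were highest in E12.5 replicate 2, the array with 17.7% testis RNA, where Cst9 and Col9a3 were also high (242 and 163 against 6.92 and 9.48 in replicate 1). The part of that RNA in the changes of these genes was not tested. The member that fell was Sox10 (131 and 23.9 at E12.5, then 5.19 and 6.76 at E14.5), a gene that neural crest cells also express, with a fold of 6.17 that was 2.8 without E12.5 replicate 1 (adjusted p = 0.102) and 13.6 without E12.5 replicate 2.

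All 4 tested genes of the adrenal cortex fell in the knock-out ovary, beside 8.41% of all genes, with a median log2 change of -1.87. In wild-type ovary, where 1.84% of all genes fell, 1 of the 4 did (median -0.76). In knock-out testis, where 1.22% of all genes fell, 0 did (median 0.78). Mc2r, the receptor for the pituitary hormone ACTH, read 183 and 83 at E12.5, then 8.16 and 10.4 at E14.5 in knock-out ovary (log2 change -3.27, adjusted p = 0.000128 by limma). Cyp11b1, which completes corticosterone, read 113 and 36.2 at E12.5, then 6.5 and 11.4 at E14.5 (log2 change -2.43, adjusted p = 0.00307), with a fold of 5.4 that was 3.17 and 9.19 without E12.5 replicates 1 and 2 in turn. E12.5 replicate 1 was the brighter array for both, and the stages did not overlap. Mrap, the partner of that receptor, read 28.2 and 15.7 at E12.5, then 8.29 and 8.66 at E14.5 (log2 change -1.01). Cyp21a1, the steroid 21-hydroxylase, read 30.8 and 22 at E12.5, then 6.72 and 9.93 at E14.5 (log2 change -1.30). The count was 2 without E12.5 replicate 1, 2 without either E14.5 array, and 1 with the 3'/5' ratio as a covariate.

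Of 8 fetal Leydig and general steroidogenic genes tested, 1 rose, 1 fell and 6 did not pass, with a median log2 change of -0.69. Over all genes 5.34% rose and 8.41% fell. Hsd3b1, a steroid dehydrogenase, read 532 and 301 at E12.5, then 325 and 478 at E14.5, with overlapping stages. Cyp17a1, needed for androgens, read 6.68 and 8.52 at E12.5, then 18.4 and 32.5 at E14.5 and did not pass. Star, which carries cholesterol into mitochondria, read 288 and 145 at E12.5, then 70.3 and 77.7 at E14.5 (adjusted p = 0.281). Cyp11a1, the first enzyme of the pathway, read 258 and 129.6 at E12.5, then 76 and 107 at E14.5 (adjusted p = 0.65). Nr5a1, a factor shared by the adrenal gland and the gonad, fell (316 and 117.3 at E12.5, then 26.9 and 44.8 at E14.5, log2 change -2.34, adjusted p = 0.0303), a call lost at adjusted p = 0.297 without E12.5 replicate 1, 0.186 without E14.5 replicate 1 and 0.0804 without E14.5 replicate 2. Its fold of 5.07 was 3.12 without E12.5 replicate 1 and 8.24 without E12.5 replicate 2. Thbs2 rose (10.6 and 11.8 at E12.5, then 84.3 and 194 at E14.5, log2 change 3.12, adjusted p = 0.000128), and it also rose in wild-type ovary (3.71) and knock-out testis (2.72). In wild-type ovary at E14.5 Cyp17a1 and Cyp11a1 read 1459 and 847 in replicate 2, the array with 19.9% testis RNA, against 6.58 and 5.50 in replicate 1.

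Genes of chromaffin cells and sympathetic neurons fell the furthest. Of 13 tested, 11 fell, beside 8.41% of all genes, 0 rose and 2 did not pass, with a median log2 change of -2.35. Chgb, a protein of secretory granules, read 2957 and 1394 at E12.5, then 6.58 and 6.58 at E14.5 in knock-out ovary (log2 change -7.59, SE 0.63, adjusted p = 1.19e-05). Th, the first enzyme of catecholamine synthesis, read 127 and 62.1 at E12.5, then 4.42 and 3.54 at E14.5 (log2 change -3.54, SE 0.26, adjusted p = 4.82e-06). Both genes were high in each E12.5 array, higher in replicate 1, and near the dim end in each E14.5 array.

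Phox2a, a transcription factor of these cells, read 526 and 138 at E12.5, then 9.09 and 10.1 at E14.5 (log2 change -4.33, adjusted p = 0.000262). Dbh, which makes noradrenaline, read 338 and 90.2 at E12.5, then 7.64 and 7.29 at E14.5 (log2 change -3.97, adjusted p = 0.000863). Chga, another granule protein, read 329 and 85.3 at E12.5, then 5.72 and 7.99 at E14.5 (log2 change -4.00, adjusted p = 0.000131). Replicate 1 was well above replicate 2 at E12.5 for all 3 genes, and the stages did not overlap. The folds without replicate 1 and without replicate 2 were 10.4 and 39 for Phox2a, 8.22 and 29.9 for Dbh, and 8.27 and 30.8 for Chga. The neuronal genes Tubb3, Elavl4 and Gap43 fell, with log2 changes of -2.32, -2.60 and -2.35, and were level between the E12.5 replicates or higher in replicate 2. Ddc, Hand2 and Slc18a1 also fell. In wild-type ovary, where 1.84% of all genes fell, 9 of the 13 did, and in knock-out testis, where 1.22% of all genes fell, 2 did.

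Summed over the list, chromaffin and neuronal signal was 6960 and 3207 in knock-out ovary at E12.5, then 494 and 494 at E14.5. In wild-type ovary the sums were 2615 and 2297 and then 927 and 614. Adrenal cortex sums were 100 and 72.2 and then 23.8 and 38.2 in wild-type ovary, and 355 and 157 and then 29.7 and 40.4 in the knock-out. So the knock-out E12.5 array with the higher chromaffin sum, replicate 1, also had the higher adrenal sum, while the knock-out E14.5 arrays were low in both. That array also had the highest 3'/5' ratio, and the part of dissected neighbouring tissue or RNA quality in the falls was not tested. For Th, which read 15.8 and 13.5 at E12.5, then 3.92 and 4.33 at E14.5 in wild-type ovary, the change in the knock-out minus that in wild type was -2.35 (95% interval -3.14 to -1.56, unadjusted p = 2.17e-05, adjusted p = 0.267 by limma).

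**Figure D4:**
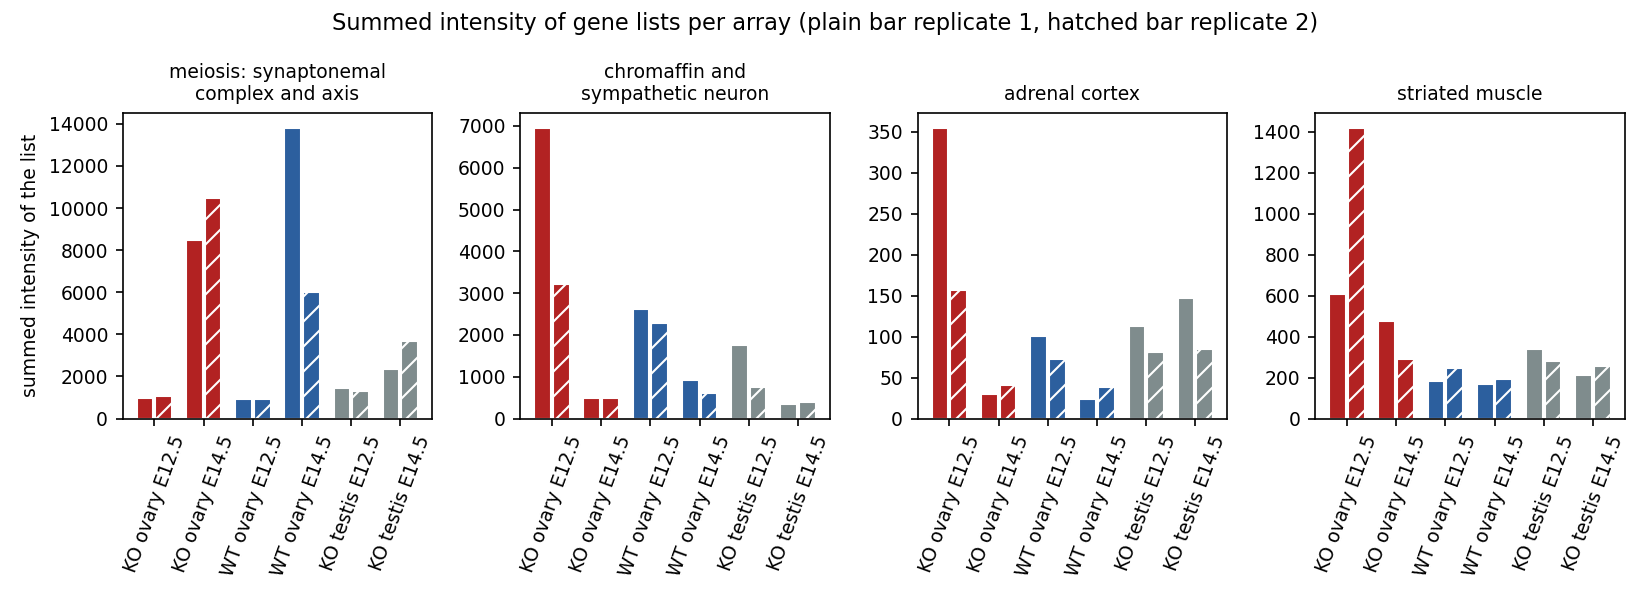
Summed intensity per array of 4 gene lists in knock-out ovary (red), wild-type ovary (blue) and knock-out testis (grey) at both stages, with plain bars for replicate 1 and hatched bars for replicate 2, on linear axes that start at 0. Synaptonemal signal is high in all E14.5 ovary arrays, while chromaffin and adrenal cortex signal is highest in replicate 1 of knock-out ovary at E12.5, and muscle signal in its replicate 2.

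Some genes of other tissues next to the gonad fell, beside 8.41% of all genes. Of 9 striated muscle genes tested Myog, Tnnc1 and Myh3 fell, and their E12.5 signal was higher in replicate 2 than in replicate 1 (183 against 61.5 for Tnnc1). The muscle sum was 609 and 1420 at E12.5, then 477 and 289 at E14.5, and the falls numbered 4 without E12.5 replicate 1, 0 without E12.5 replicate 2, 1 without E14.5 replicate 1 and 0 without E14.5 replicate 2. They numbered 0 with arrays centred on their medians and 1 with the 3'/5' ratio as a covariate. Of 8 genes of the mesonephros and its ducts 3 fell, and 2 with that covariate. Gata3 read 191 and 109 at E12.5, then 26.2 and 24.6 at E14.5 (log2 change -2.34, adjusted p = 0.000621) and Wnt9b 48.7 and 20.3 at E12.5, then 5.88 and 6.55 at E14.5 (-1.81, lost at adjusted p = 0.132 without E12.5 replicate 1, 0.0709 without E14.5 replicate 1 and 0.0566 without E14.5 replicate 2).

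Calb1, a calcium-binding protein, read 172 and 201 at E12.5, then 22.5 and 21.9 at E14.5 in knock-out ovary (log2 change -2.86, adjusted p = 0.000877) and 235 and 380.3 at E12.5, then 358 and 264 at E14.5 in wild-type ovary. The knock-out pairs did not overlap and the wild-type pairs did. The difference between the changes was -2.90 (95% interval -4.18 to -1.62, unadjusted p = 0.000291, adjusted p = 0.478 by limma). In knock-out testis Calb1 fell as well (log2 change -3.53, adjusted p = 0.00045).

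Of 19 blood vessel genes 4 fell and 0 rose, beside 8.41% of all genes that fell, with a median log2 change of -0.51. Tie1, a receptor of endothelial cells, read 326 and 254 at E12.5, then 63 and 120.4 at E14.5 (log2 change -1.68, adjusted p = 0.00267). Plvap, Kdr and Aplnr fell, with log2 changes of -2.16, -0.96 and -0.74, and without E12.5 replicate 1 their adjusted p was 0.25, 0.295 and 0.195. The general endothelial genes Cdh5, Tek and Emcn did not pass, and Emcn read 535 and 832 at E12.5, then 985 and 1229 at E14.5. The falls numbered 1 without E12.5 replicate 1, 7 without E12.5 replicate 2, 1 without E14.5 replicate 1 and 1 with the 3'/5' ratio as a covariate.

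Of 10 red-cell genes 4 fell, beside 8.41% of all genes, and the falls numbered 2 with arrays centred on their medians and 1 with the 3'/5' ratio as a covariate. Hbb-bh1, an embryonic globin, read 9107 and 7799 at E12.5, then 1486 and 358 at E14.5 (log2 change -3.52, adjusted p = 0.000504), and its fold of 11.5 was 23.3 without E14.5 replicate 1 and 5.66 without E14.5 replicate 2. Hba-x, another embryonic globin, fell with a log2 change of -1.58, as did Hbb-y (-0.54) and the red-cell anion exchanger Slc4a1 (-1.16). In wild-type ovary the same 4 fell, with Hbb-bh1 at -4.28. The calls on Hba-x, Hbb-y and Slc4a1 were each lost without E12.5 replicate 1 (adjusted p = 0.0637, 0.298 and 0.266). Of 16 macrophage genes, Lyz2 rose (41.2 and 47.3 at E12.5, then 123 and 116 at E14.5, log2 change 1.36, adjusted p = 0.0144, lost at adjusted p = 0.115 without E12.5 replicate 1, 0.0884 without E14.5 replicate 1 and 0.0678 without E14.5 replicate 2) and 0 fell.

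Of 15 stromal genes 4 rose and 0 fell, beside 5.34% of all genes that rose. Lum, a small proteoglycan of connective tissue, read 716 and 831 at E12.5, then 2801 and 3141 at E14.5 (log2 change 1.94, adjusted p = 4.82e-06). Dcn, another of that family, read 1490 and 1221 at E12.5, then 3967 and 4955 at E14.5 (log2 change 1.71, adjusted p = 1.27e-05). The pairs were tight at both stages, and the same genes rose by 1.86 and 1.63 in wild-type ovary. Ogn rose by 1.83 (adjusted p = 0.0572 without E14.5 replicate 2) and Tcf21 by 0.57 (adjusted p = 0.204 without E12.5 replicate 1 and 0.133 without E14.5 replicate 2). Of 10 surface epithelium genes, the keratin Krt19 (149 and 148 at E12.5, then 532 and 552 at E14.5) and Upk1b (36 and 34.2 at E12.5, then 148 and 125 at E14.5) rose, by 1.84 and 1.84, and neither call was lost without any 1 array. Krt19 changed by -0.14 in knock-out testis, and the difference from the ovary was 1.98 (adjusted p = 0.032).

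Calls among division genes were about as frequent as among all genes, of which 5.34% rose and 8.41% fell. Of 24 proliferation genes, 2 rose (Bub1 at 0.86 and Pcna at 0.69) and 2 fell (Rrm2 at -0.45 and Mcm7 at -0.58), and all 4 were lost without E12.5 replicate 1 (adjusted p = 0.118, 0.449, 0.216 and 0.392). With the 3'/5' ratio as a covariate 0 rose and 0 fell. Other probe sets of Rrm2 and Mcm7 changed in the opposite direction, up to 1.30 for Rrm2. Of 11 p53 targets, Zmat3 fell by 0.78, and of 13 immediate early and heat shock genes, Dusp1 fell by 0.77, neither of them called without E12.5 replicate 1 (adjusted p = 0.14 and 0.26). Of 16 cholesterol synthesis genes 4 rose and 1 fell, and 0 rose without E12.5 replicate 1 or with the 3'/5' ratio as a covariate (the pathway enzyme Fdps had read 194 in that array and 557 in replicate 2). Other probe sets changed in the opposite direction for Hsd17b7, the gene that fell (0.31 and 0.26 on the log2 scale), and for Mvk, which rose by the probe set used here (-0.18).

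Among the largest changes outside the lists, several rises were again of genes known from germ cells. Tex101, a germ cell surface protein, read 4.02 and 4.14 at E12.5, then 576 and 1126 at E14.5 (log2 change 6.65, adjusted p = 1.82e-05). Tktl1, a relative of transketolase, read 3.58 and 5.33 at E12.5, then 572 and 781 at E14.5 (log2 change 6.32, adjusted p = 1.19e-05). Taf7l, a germ-cell relative of a TFIID subunit, read 14 and 11.9 at E12.5, then 1048 and 1443 at E14.5 (log2 change 6.19, adjusted p = 0.000131). Each of these 3 was dim at E12.5 and bright at E14.5. M1ap, named for its presence in meiosis, read 5.49 and 5.8 at E12.5, then 369 and 666 at E14.5 (log2 change 5.69, adjusted p = 2.55e-06). Adamdec1, a metalloprotease, read 4.7 and 6.04 at E12.5, then 335 and 435 at E14.5 (log2 change 5.37, adjusted p = 1.52e-05). All 5 were at the dim end in both E12.5 arrays, and all rose in wild-type ovary too, by 3.50 (Adamdec1) to 6.44 (Tex101). They complete the 15 largest rises, of which the other 10 were members of the meiosis lists.

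The 15 largest falls held 4 of the chromaffin list and 11 others, several of them neural. Insm1, a factor of neuroendocrine cells, read 452 and 376 at E12.5, then 9.99 and 14.4 at E14.5 (log2 change -4.70, adjusted p = 2.32e-05). Nefl, a neurofilament protein, read 759.7 and 494 at E12.5, then 29.9 and 21.9 at E14.5 (log2 change -4.38, adjusted p = 0.000324). Ret, a receptor of enteric and sympathetic precursors, read 129 and 108 at E12.5, then 6.14 and 5.73 at E14.5 (log2 change -3.62, adjusted p = 1.19e-05). These 3 were high in both E12.5 arrays and low in both E14.5 arrays. Crh, the hypothalamic hormone that drives ACTH, read 265 and 316 at E12.5, then 4.72 and 5.34 at E14.5 (log2 change -5.02, adjusted p = 4.18e-06). Cxcl13, a chemokine, read 531 and 512 at E12.5, then 24.7 and 31.8 at E14.5 (log2 change -4.04, adjusted p = 1.31e-05). The rest were A930009L07Rik (-5.28), Dgkk (-5.07), Rgs4 (-4.70), Tbx20 (-4.15), Stmn3 (-3.81) and Sprr2d (-3.64). Of these, Dgkk, Stmn3 and Sprr2d were far brighter in E12.5 replicate 1 than in replicate 2 (635 against 150, 349 against 92.7, and 419 against 71.9), and without replicate 1 their folds were 16.6, 7.36 and 5.27, and without replicate 2 68.6, 26.9 and 29.4, in place of 33.7, 14.1 and 12.4.

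Set beside wild type, the knock-out ovary changed in the same direction in nearly all called genes. In wild-type ovary 533 genes changed (4.32% of those tested), 306 of them higher and 227 lower. Genes called in both comparisons in the same direction numbered 412, which is 24.3% of the knock-out calls and 77.3% of the wild-type calls, and 0 were called in opposite directions. Of the 1696 knock-out calls 1656 (97.6%) had the same sign in wild type, against 76.6% of all genes tested. The 2 comparisons use different arrays but share the spread of a common fit. The order of the counts was reversed with the 3'/5' ratio as a covariate, at 413 genes in knock-out ovary and 538 in wild-type ovary. In knock-out ovary that ratio was higher in both E12.5 arrays than at E14.5, so it went with stage. The cause of the reversal was not tested.

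**Figure D5:**
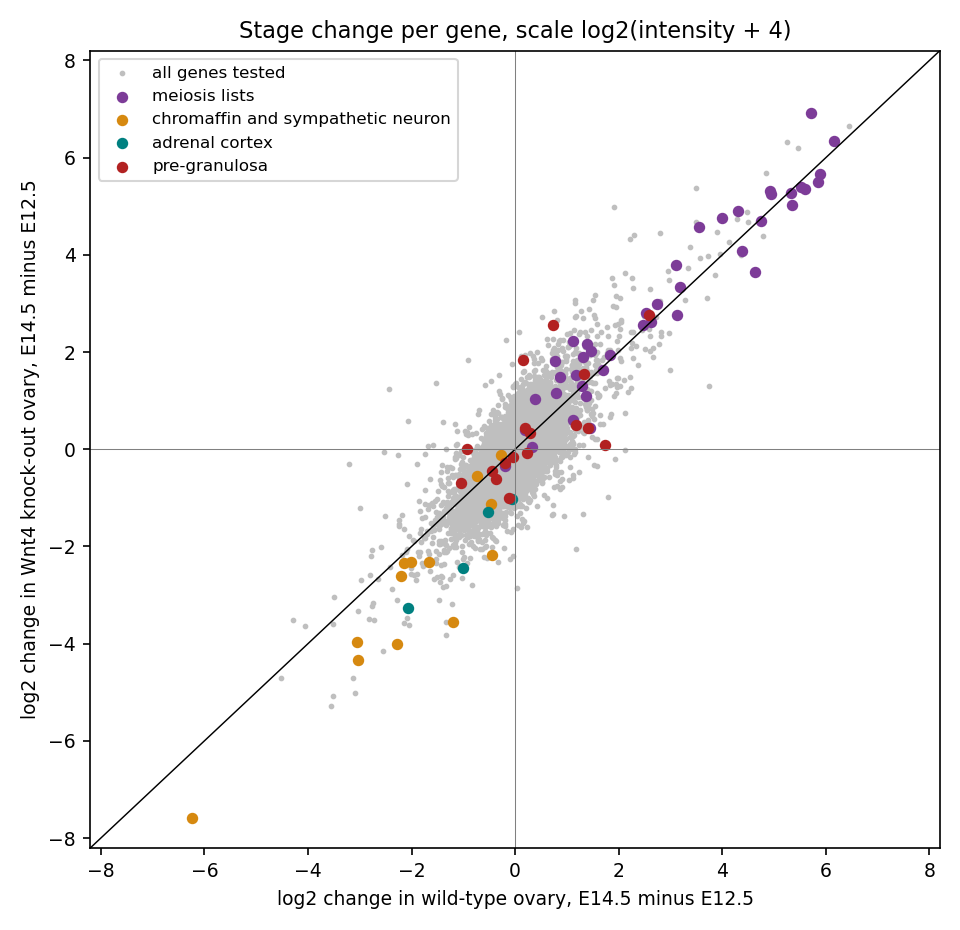
Log2 change of (intensity + 4) from E12.5 to E14.5 per gene, wild-type ovary on the horizontal axis and knock-out ovary on the vertical axis, for the 12336 genes tested (grey) and the members of 4 sets of lists (coloured), with the line of equal change. Meiosis genes follow the line at the upper right, and most chromaffin and adrenal cortex genes lie below it at the lower left.

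No gene passed the test of the difference between the knock-out and wild-type changes (limma, 0 of 12336, 0% called), and 555 reached an unadjusted p under 0.05. With arrays left out, 26 passed without replicate 2 of knock-out ovary at E12.5, 8 without wild-type ovary E14.5 replicate 2 and at most 2 without any other array. The 10 smallest p-values belonged to Th, Phlda2, Cpa1, Ccdc182, Cyp2r1, Scd1, Calb1, Trim66, Dubr and Grin3a, with adjusted p from 0.267 to 0.501. Phlda2, an imprinted gene, read 8.78 and 5.39 at E12.5, then 7.2 and 5.85 at E14.5 in knock-out ovary and 97.7 and 146 at E12.5, then 10.03 and 28.7 at E14.5 in wild-type ovary, so that it was low throughout in the knock-out and fell in wild type. Cpa1, a carboxypeptidase of the pancreas, read 539.9 and 368 at E12.5, then 575 and 783 at E14.5 in the knock-out and 269 and 306 at E12.5, then 53.4 and 80.6 at E14.5 in wild type. Cyp2r1, a vitamin D 25-hydroxylase, read 6.26 and 5.38 at E12.5, then 37.4 and 42.4 at E14.5 in the knock-out and 5.8 and 6.98 at E12.5, then 18 and 11.6 at E14.5 in wild type, with a difference between the changes of 1.32 (95% interval 0.76 to 1.89, adjusted p = 0.478). Scd1, a fatty acid desaturase, was lower at E14.5 in the knock-out (58 and 53.6 at E12.5, then 27.9 and 34.1 at E14.5) and higher at E14.5 in wild type (51.2 and 48 at E12.5, then 104 and 89.3 at E14.5), though another Scd1 probe set changed by 0.06 in the knock-out.

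Set beside knock-out testis, where 480 genes changed (3.89% of those tested), the ovary differed in 158 genes (1.28%, limma). The change was more positive in ovary for 43 of these (0.349%) and less positive for 115 (0.932%). In the testis M1ap read 5.41 and 5.23 at E12.5, then 7.17 and 11.1 at E14.5, and its change in ovary minus that in testis was 5.22 (adjusted p = 0.000279). Dmc1 read 7.39 and 5.93 at E12.5, then 11.2 and 15.2 at E14.5 there, with a difference of 4.03 (adjusted p = 0.00205). For Stra8, which read 5.01 and 5.73 at E12.5, then 9.88 and 64.2 at E14.5 in testis, the difference was 5.21 and did not pass (95% interval 2.62 to 7.79, adjusted p = 0.0531). Knock-out testis E14.5 replicate 2, the array with 16.4% ovary RNA, was above replicate 1 for each of these 3 genes. Clps, a colipase, read 5.17 and 3.58 at E12.5, then 5.06 and 4.46 at E14.5 in the ovary and rose in the testis (4.96 and 4.63 at E12.5, then 118 and 142 at E14.5), with a difference of -3.85 (adjusted p = 0.000169). Rrad, a small GTPase, read 5.61 and 6.46 at E12.5, then 6.82 and 9.23 at E14.5 in the ovary and rose in the testis (5.71 and 4.45 at E12.5, then 65.6 and 66 at E14.5), with a difference of -2.69 (adjusted p = 0.000392). For Th the difference was -3.23 (adjusted p = 0.00182). The count of 158 was 31 without knock-out ovary E12.5 replicate 1, 34 without E14.5 replicate 1, 66 without E14.5 replicate 2 and 588 without E12.5 replicate 2, and 56 to 77 without a testis array.

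Calls on genes picked by the naming rule were checked against each knock-out ovary array in turn. List members named outside that rule, such as Spo11, Syce2, Syce3, Gap43, Hand2 and Slc18a1, were not, and the 118 counted next leave them out. With only the 8 ovary arrays in the fit, 85 of these 118 were kept and 33 lost. Of 118 named genes called in the knock-out ovary, 72 held without any 1 of the 4 arrays. With the 3'/5' ratio as a covariate 78 of the 118 were kept and 40 lost, and 71 of the 72 were among those kept. Stra8, Sycp1, Dmc1, Smc1b, Figla, Foxl2, Chgb, Th, Crabp1, Kit, Lum and Krt19 were among the 72. Fst, Irx3, Meioc and most calls in the vessel, muscle, red-cell, proliferation and cholesterol lists were not.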

How the data were processed

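RNA of embryonic gonads was measured on 16 Affymetrix arrays, in 8 groups of 2 by genotype, sex and stage taken from the labels. The deposited values are linear probe-set intensities that the authors made with MAS5, per the submitters' processing notes, and neither its version nor the target scaling is given in the sources used here. Of 45101 probe sets, 34945 have 1 gene symbol in the platform annotation of 2016, 932 have several and 9160 none, and 64 are controls. Symbols of 34741 were found through Entrez identifiers. Trimmed means (2% from each end) of the arrays were level, which is how MAS5 scales them, so no further normalization was applied. From these, log2(intensity + 4) was computed, 4 being the rounded median 20th percentile of the arrays. Probe sets above their array's median in at least 2 arrays were kept (25620), and the brightest per gene was used (12336 genes).

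One model of group means over all 16 arrays was fitted with limma 3.58.1 in R 4.3.3 (eBayes with an intensity trend, Benjamini-Hochberg, threshold 0.05), and differences between changes were tested as contrasts in it. It was tested on simulated data with known changes. Tables and figures were made with Python 3.11.15, numpy 2.4.6, pandas 2.3.3 and matplotlib 3.10.9. The alternatives changed the pseudocount, filter, normalization, probe set choice, arrays in the fit, covariates and threshold, or left out single arrays. The 28 gene lists (400 entries, 398 genes, 331 tested) and the comparisons were chosen with earlier results of these data known. Genes named are Wnt4, sex-specific genes, the markers Stra8, Sycp1 and Foxl2, the 15 largest rises and falls among called genes whose arrays do not overlap, the 10 smallest p of each difference, and list members, by smallest p or, for lists that did not move, by abundance. A few list members were named after their values were seen, to account for a count. Replicate numbers pair nothing by the labels, and same-numbered arrays of the knock-out ovary did not deviate together (r = -0.135 over genes). Other pairs were less independent. At E12.5 the replicate differences of wild-type and knock-out ovary were opposed (r = -0.66). At E14.5 those of wild-type and knock-out testis went together (r = 0.582). The part of such shared deviations in the differences between genotypes was not tested.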

Additional observations from a re-analysis of the deposited data

Results flagged for a closer look

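The change from E12.5 to E14.5 differed between knock-out ovary and knock-out testis in 158 genes by limma's test of the difference, 40 of them named or list genes. All values here are the log2 change in ovary minus that in testis. Groups of 2 arrays were too small for a check of single outlying arrays.

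Of the 40, 15 were more positive in the ovary. Most belong to meiosis: Terb1 at 4.98, Spdya at 4.58, Smc1b at 4.48, Dmc1 at 4.03, Syce1 at 3.44, Terb2 at 2.84, Prdm9 at 2.63, Stag3 at 2.55 and Rec8 at 1.61. M1ap at 5.22, Adamdec1 at 4.75 and the oocyte factor Figla at 3.77 rose in the ovary beside them. Krt19 stood at 1.98, Cyp2r1 at 2.24 and Tdgf1, a co-receptor of the ligand Nodal, at 1.5.

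The other 25 were less positive in the ovary. Genes of male germ cells and the piRNA pathway stood at -3.71 (Piwil4), -3.36 (Tdrd5), -1.91 (Gtsf1) and -1.82 (Tdrd9), and of these Gtsf1 rose in both sexes. Genes of steroid and cholesterol metabolism stood at -3.89 (Cyp11b1), -2.84 (Scarb1), -2.72 (Dhcr7), -2.20 (Cyp21a1), -2.08 (Hsd17b7, whose other probe sets changed in the opposite direction in knock-out ovary) and -1.87 (Fdx1). The fatty acid desaturase Scd1 stood at -2.66 and Mrap, the partner of the ACTH receptor, at -1.68. Neural and chromaffin genes stood at -3.23 (Th), -3.14 (Chga), -3.02 (Ret) and -2.43 (Tubb3). Other large falls in the ovary stood at -3.73 (A930009L07Rik), -3.63 (Dgkk), -3.48 (Rgs4), -3.38 (Sprr2d) and -2.95 (Tbx20). Clps at -3.85, Rrad at -2.69, the heat shock gene Hspa1a at -2.42 and Rbp4, a carrier of retinol, at -1.69 complete the set. Knock-out ovary E12.5 replicate 1 had the highest 3'/5' ratio (2.27) and the highest chromaffin sum, and knock-out testis E14.5 replicate 2 held 16.4% ovary RNA, and their part in these differences was not tested.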

How the results depend on the processing

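Counts of changed genes moved widely, those of the meiosis and chromaffin lists little, and those of several smaller lists by more than 1.5 times. In knock-out ovary the total, rises and falls were 697, 316 and 381 with its own 4 arrays fitted alone, 443, 205 and 238 with the 8 ovary arrays, 2974, 1216 and 1758 with a covariate for opposite-sex RNA, and 413, 226 and 187 with one for the 3'/5' ratio. They were 522, 234 and 288 at an adjusted p under 0.01 and 2926, 1136 and 1790 under 0.10, and averaging the wild-type testis arrays of E12.5 gave 1130 in all and 673 falls. Leaving out 1 array at a time gave 436 to 2746 in all, 205 to 1088 rises and 231 to 1658 falls. Wild-type ovary gave 192 calls with array weights, 115 fitted alone, 163 with the ovary arrays, 214 under 0.01, 818 under 0.10 and 209 to 1265 with 1 array left out. Knock-out testis gave 811 with the opposite-sex covariate, 216 under 0.01, 769 under 0.10 and 179 to 499 with 1 array left out. Where an arm kept 1 array, that array was assumed to vary like the other groups.

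The difference between knock-out and wild-type ovary gave 2 calls with a pseudocount of 32, 1 without the filter and 0 to 26 with 1 array left out. The difference between knock-out ovary and testis gave 249 with array weights, 69 with every named probe set tested, 274 with the opposite-sex covariate, 70 with the wild-type testis arrays averaged, 18 under 0.01, 371 under 0.10 and 31 to 588 with 1 array left out. With the 3'/5' ratio as a covariate, falls numbered 1 in the adrenal cortex list and 9 in the chromaffin list, and rises in the meiosis lists numbered 29. Of the genes called with the 3'/5' covariate 400 of 413 were among the 1696, and of those called without E12.5 replicate 1, 421 of 436. Quantile normalization and median centring moved the share of rises among the calls from 38.9% to 47.7% and 51.5%. Rrm2 turned to 0.29 (adjusted p = 0.42) when probe sets of a gene were averaged. The cause of these shifts was not tested, except that stricter thresholds call fewer genes by construction.

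With the replicate number as a block, 1461 genes were called, 1438 of them among the 1696, and 8 of 118 named calls were lost, against 40 with the 3'/5' covariate. With the numbers of the E14.5 arrays crossed, added after the data were seen because same-numbered deviations correlated at -0.135, 1404 were called. Dim probe sets limit the precision of the E12.5 level of meiosis genes, and the number of arrays limits the rest.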

Other observations

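Genes on the X chromosome held more rises in the knock-out ovary than other genes did. Of 437 X-linked genes tested 60 rose (13.7%), against 5.03% of the other genes. Their median log2 change was 0.06 against -0.10 over all genes, and the medians of the other chromosomes lay between -0.20 and -0.03. In wild-type ovary 6.41% of the X-linked genes rose, against 2.48% of all genes tested. With E12.5 replicate 1 left out 26 rose (5.95% against 1.5% of other genes), without E12.5 replicate 2 78 (17.8% against 8.49%), without E14.5 replicate 1 35 (8.01% against 2.34%) and without E14.5 replicate 2 31 (7.09% against 1.5%). Tex11, Taf7l and Tktl1, named above, lie on this chromosome. No test was made, since neighbouring genes are not independent.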
